A study of Mus musculus with 9 samples.

Results

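A group of transcription factors that set the identity of microglia and other macrophages, Sall1, Mef2a, Mef2c, Spi1, Irf8, Runx1, Maf, Tal1 and Cebpa, was followed, 9 genes among the 36528 genes counted in brain myeloid cells. They were chosen by name for this role, not by a threshold on their values, and all 9 passed the filter on low counts. Cells carrying Cd11b, an integrin chain of microglia and other myeloid cells, had been sorted from mouse brain at an age of 11 to 12 months, and their RNA was sequenced. Of the libraries, 5 (2 female, 3 male) came from Tau-P301L mice, which carry a transgene for tau bearing P301L, a mutation of familial frontotemporal dementia. Littermates without the transgene, called wild type here, gave 4 (2 female, 2 male). The promoter of the transgene is not given in the sources used here. Libraries are called by group and number, numbered in sample order, and the labels do not tie each of them to its own mouse, so that the tests weigh differences against the spread between these samples, which may be technical.

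On GRCm38.p6, per RefSeq, Sall1 (Entrez 58198) spans chr8:89027242-89044162, Irf8 (15900) chr8:120736358-120756694 and Maf (17132) chr8:115703253-115706894. Mef2a (17258) spans chr7:67231163-67376456, Cebpa (12606) chr7:35119293-35121928 and Mef2c (17260) chr13:83504017-83667079. Spi1 (20375) spans chr2:91082374-91115759, Runx1 (12394) chr16:92601466-92826074 and Tal1 (21349) chr4:115056426-115071755. Whether counting used strand is not given in the sources used here, so reads of overlapping antisense genes could be included.

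Macrophage identity is laid down in layers. Spi1 (PU.1), an Ets-family factor, opens chromatin at myeloid enhancers, and partners such as Irf8, Runx1 and Cebpa bind beside it. Signals from the tissue then add factors that mark the resident cell, and in microglia these are above all the zinc-finger factor Sall1 and the Mef2 proteins.

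The libraries held 1494727 to 3793606 reads in genes, at which 3 reads equal 0.791 to 2.01 CPM (counts scaled to library size, the usual cpm unit). The 12 microglial markers, among them P2ry12 and Tmem119, were all detected and summed to 9135 to 17050 CPM per library. Markers of neurons summed to 127.6 to 382 CPM and those of oligodendrocytes to 326.1 to 1433 CPM, the highest in Tau-P301L library 5, while markers of T and NK cells stayed at or below 1.334 CPM. Of other myeloid cells, border macrophage markers summed to 36.04 to 124 CPM and monocyte markers to 26.56 to 83.1 CPM. Neutrophil markers ran from 0.338 CPM in wild-type library 2 to 255.7 CPM in Tau-P301L library 4. The part of these cells in the values of the factors was not tested. None of 16 library measures compared, which were reads, detected genes, mitochondrial share and 13 marker sums, passed for genotype (smallest exact permutation p = 0.0873, two-sided, adjusted p = 0.711). The smallest p that this test can give is 0.00794, so a single measure could not pass after adjustment over the 16. The groups are therefore not shown to be alike in these measures. Of the 9, Tau-P301L libraries 3 and 5 were least like the rest: their correlation with the remaining libraries averaged 0.848 and 0.841, where the others had 0.869 to 0.898.

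Per length of transcript the 9 factors fell into a high and a low tier. Levels of different genes are compared here on the authors' size-factor-adjusted RPKM (read density scaled to transcript length and depth). Mef2a, a MADS-box factor, led with 40.6 ± 8.07 RPKM (SD, n = 9), above 98.96% of the 12250 genes tested. Maf, a leucine-zipper factor of mature macrophages, stood at 38.9 ± 11.1 RPKM, Mef2c at 28.8 ± 10.1 RPKM and Sall1 at 25.1 ± 8.1 RPKM. The order within this tier was loose: Mef2a lay above Maf in 5 of 9 libraries, Maf above Mef2c in 6 and Mef2c above Sall1 in 5, and the ranges of each neighbouring pair overlapped.

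Irf8, at 7.57 ± 2.79 RPKM, opened the lower tier, and Sall1 exceeded it in all 9 libraries with ranges that did not overlap. Runx1, the runt-domain factor of blood cell formation, stood at 6.08 ± 0.969 RPKM and Spi1 at 6.04 ± 1.77 RPKM, and Runx1 was above Spi1 in 4 of 9 libraries. The ranges of Irf8, Runx1 and Spi1 overlapped one another. Cebpa, which commits progenitors to the granulocyte and monocyte line, stood at 2.4 ± 0.743 RPKM, and Tal1, a helix-loop-helix factor of blood stem cells, at 1.91 ± 0.554 RPKM, the lowest of the 9. Even these last rested on 42 to 104 reads for Cebpa and 38 to 203 reads for Tal1 per library. The order was not the same by CPM, which takes no account of length: there Maf followed Mef2c and Sall1, and Spi1 followed Tal1.

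**Figure D1:**
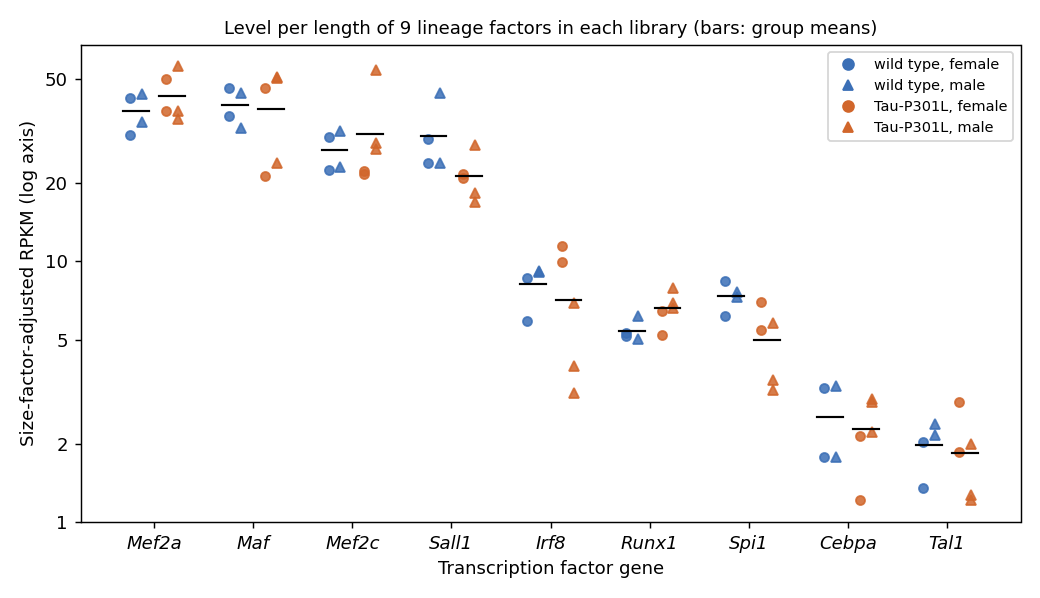
Level per length (size-factor-adjusted RPKM, log axis) of the 9 factors in each library, with circles for females, triangles for males and bars for group means. Mef2a, Maf, Mef2c and Sall1 form the upper tier, with means of 25.1 to 40.6 RPKM, and the groups overlap for every factor.

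Within their families some of the factors were nearly alone and others shared the field. Spi1 made up 99.96% of the summed RPKM of its subgroup, with Spib at no more than 1 read in a library and Spic at 0 in all 9. Sall1 held 83.6% of the Sall family, with Sall3 second at 3.77 ± 0.565 RPKM (SD, n = 9), and the ratio of Sall1 to Sall3 ran from 4.46 to 9.64. Runx1 held 89.0% of its family, above Runx2 in all 9 libraries. Among the Mef2 genes Mef2a exceeded Mef2c in all 9 libraries, by 1.04 to 2.24 times, Mef2d followed at 7.33 ± 2.88 RPKM, and Mef2b had at most 1 read.

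Irf8 was not the most abundant interferon regulatory factor per length. Irf2 stood at 9.62 ± 2.45 RPKM (SD, n = 9) and Irf8 exceeded it in 2 of 9 libraries, while it exceeded Irf5, at 5.77 ± 2.39 RPKM, in 8 of 9. Lyl1, a close relative of Tal1 that can stand in for it in blood cells, exceeded Tal1 in all 9 libraries, at 6.08 ± 2.31 RPKM. Cebpg, which lacks an activation domain of its own, likewise exceeded Cebpa in all 9, at 7.24 ± 2.8 RPKM. Cebpa was above Cebpb, a factor of inflammatory gene induction, in 7 of 9.

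**Figure D2:**
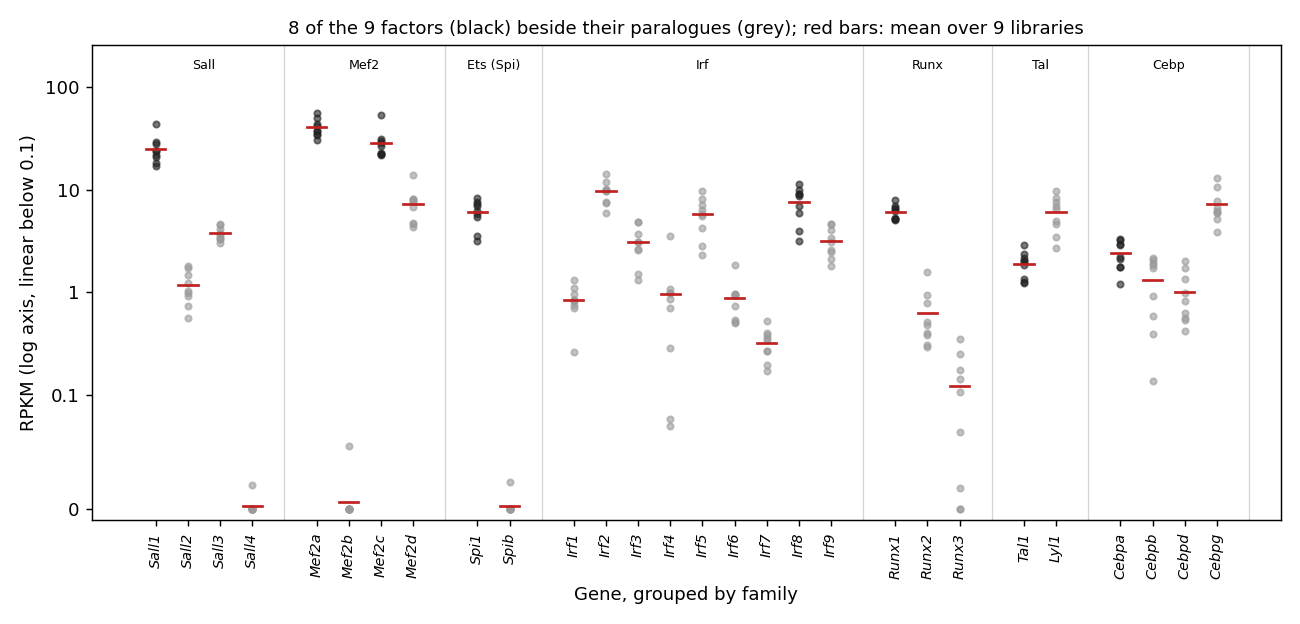
RPKM of 8 of the 9 factors (black) and their paralogues (grey) in 9 libraries, 1 point per library and a red bar for the mean, on an axis that is logarithmic above 0.1 and linear below; genes with 0 reads throughout and the family of Maf are left out. Spi1, Sall1 and Runx1 dominate their groups, whereas Cebpa and Tal1 lie below Cebpg and Lyl1.

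Most factors listed for macrophages of other organs and monocytes were near the floor of detection. Of 11 such genes 9 were too low to test. Gata6, the factor of peritoneal macrophages, had 1 read in the 9 libraries together and Spic, that of splenic red pulp macrophages, had 0. Pparg, needed by alveolar macrophages, had 0 to 16 reads and Id3, used by Kupffer cells of the liver, 0 to 4. Among the rest of the untested genes, Nr4a1 had 0 to 21 reads, Klf4 0 to 12, Nr1h3 1 to 9, Rara 0 to 7 and Id1 0 to 2. The 2 tested, Rxra and Bach2, were not near the floor, with 16 to 128 and 114 to 350 reads per library. Their means were 1.14 and 1.81 RPKM. Their genotype estimates were -0.51 and -0.13 on the log2 scale (edgeR adjusted p = 0.839 and 0.940).

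The main comparison asked whether mutant tau in the brain goes with a change of these factors in its myeloid cells. No factor passed an adjusted p of 0.05 in edgeR's quasi-likelihood test, and in none did the libraries of the groups separate. Among all 12250 genes 0.00816% passed, or 1 gene, and 2.48% had groups that did not overlap (1.31% with Tau-P301L above and 1.18% below), so 0 of 9 is near that background. At an unadjusted p under 0.05 there were 778 genes, Sall1 among them. DESeq2 likewise called 0 of the 9, where it called 0.22% of all genes. Estimates were higher in Tau-P301L for 3 factors and lower for 6, with a median log2 fold change of -0.12 beside -0.00073 over all genes. The sort is bulk, so fewer cells of a type and less RNA per cell cannot be told apart.

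Sall1, on which the microglial state depends, had the smallest p of the 9. It stood at 979.2, 780.0, 1426 and 797.7 CPM in wild-type libraries 1 to 4 and at 693.0, 722.3, 540.2, 911.6 and 589.2 CPM in Tau-P301L libraries 1 to 5. Of the Tau-P301L libraries 4 lay below every wild-type library, and library 4 lay among them. Group means were 995.6 ± 300.5 CPM (SD, n = 4) against 691.2 ± 143.8 CPM (SD, n = 5). The log2 fold change was -0.53 (SE 0.24, 95% interval -1.02 to -0.04, edgeR adjusted p = 0.776), and by unadjusted p it ranked 549 of 12250 genes. Wild-type library 3 held the highest value of the 9, and without it the estimate was -0.28 (adjusted p = 0.9997). Without Tau-P301L libraries 3 and 5 it was -0.30 (adjusted p = 0.992).

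Spi1 had the lowest estimate. Its levels were 36.77, 49.03, 44.01 and 43.39 CPM in the wild-type libraries and 32.13, 41.42, 18.23, 33.92 and 20.08 CPM in the Tau-P301L libraries. Here too 4 of 5 Tau-P301L libraries lay below all wild-type libraries, the exception being library 2. The mean of Spi1 was 43.3 ± 5.03 CPM for wild type (SD, n = 4) and 29.16 ± 9.795 CPM for Tau-P301L (SD, n = 5). This gave a log2 fold change of -0.56 (SE 0.32, 95% interval -1.24 to 0.11, edgeR adjusted p = 0.789). Spi1 rested on 29 to 158 reads per library, far fewer than the 851 to 3758 of Sall1. Without Tau-P301L libraries 3 and 5 the estimate was -0.28 (adjusted p = 0.992).

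Runx1 was the steadiest of the 9 and had the highest estimate. Its levels were 160.5, 162.3, 185.9 and 156.5 CPM in wild-type and 199.1, 162.5, 233.9, 210.3 and 197.3 CPM in Tau-P301L libraries. All Tau-P301L libraries but library 2 exceeded the wild-type range, and the highest of the 9 was 1.49 times the lowest. The log2 fold change was 0.25 (SE 0.21, 95% interval -0.20 to 0.70, edgeR adjusted p = 0.855), with an estimate of 0.22 without Tau-P301L libraries 3 and 5. Cbfb, the subunit that strengthens the hold of Runx1 on DNA, had an estimate of 0.67 (SE 0.37, adjusted p = 0.789).

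The Mef2 pair had estimates close to 0. For Mef2a the means were 1046 ± 189.0 CPM (wild type, SD, n = 4) and 1187 ± 243.6 CPM (Tau-P301L, SD, n = 5; log2 fold change 0.18, 95% interval -0.29 to 0.65), and leaving out 1 library gave 0.08 to 0.29. Mef2c ranged from 652.9 to 910.5 CPM in wild-type libraries. It ran at 654.5, 643.7, 1535, 827.6 and 772.0 CPM in Tau-P301L libraries 1 to 5, so that library 3 was far above all others. Its estimate was 0.10 (95% interval -0.43 to 0.62, edgeR adjusted p = 0.954) and turned to -0.12 without that library. Neurons use Mef2c as well. The sum of 11 neuronal markers, of which 8 could be tested and none was at 0 throughout, was 247.1 to 382 CPM in wild-type libraries and 127.6 to 321.4 CPM in Tau-P301L libraries, with 284.6 CPM in library 3. The part of neuronal RNA in the Mef2c values was not tested.

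Irf8 spread more than any other member, by 3.79 times from lowest to highest. The wild-type libraries held 122.2, 82.5, 125.9 and 129.9 CPM and the Tau-P301L libraries 139.5, 162.5, 53.8, 96.24 and 42.93 CPM. Both the highest and the lowest values of the 9 were thus in the Tau-P301L group, which makes a group mean a poor summary (log2 fold change -0.30, 95% interval -0.96 to 0.37, edgeR adjusted p = 0.884). Leaving out 1 library gave -0.55 (without wild-type library 2) to -0.10 (without Tau-P301L library 5), and without Tau-P301L libraries 3 and 5 the estimate turned to 0.19.

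Maf, Tal1 and Cebpa had estimates of -0.08, -0.12 and -0.23, with 95% intervals from -0.64 to 0.49, -0.81 to 0.57 and -1.02 to 0.55. Maf in Tau-P301L libraries was either at 690.8 to 735 CPM (libraries 1, 3 and 5) or at 321.8 and 351.5 CPM (libraries 2 and 4), on both sides of the wild-type range of 489.0 to 692.6 CPM. Tal1 held 30.09 to 53.27 CPM in wild-type and 26.31 to 63.94 CPM in Tau-P301L libraries. Endothelial cells use Tal1 as well. Their 8 markers, of which 3 could be tested, summed to 19.27 to 34.05 CPM in wild-type and 13.57 to 39.47 CPM in Tau-P301L libraries, led by Pecam1 at a mean of 14.8 CPM, with Cldn5 at 0 in every library. The part of endothelial RNA in the Tal1 values was not tested. The estimate of Tal1 was 0.23 without Tau-P301L libraries 3 and 5. Cebpa held 19.45 to 35.28 CPM and 13.23 to 31.12 CPM.

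**Figure D3:**
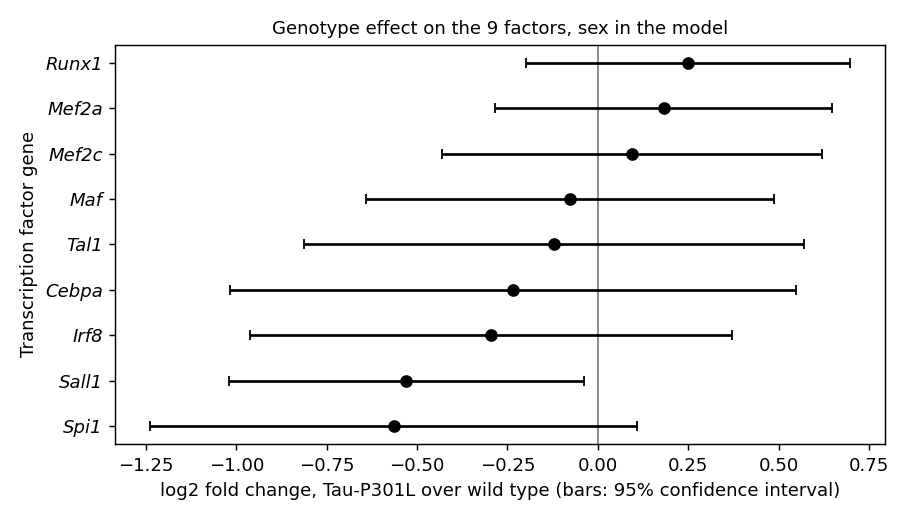
Log2 fold change of Tau-P301L over wild type for each factor, as points with 95% confidence intervals, from the fit with sex. Spi1 and Sall1 have the lowest estimates, -0.56 and -0.53, and Runx1 the highest, 0.25; none passed the adjusted threshold.

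These intervals set what the data could show. For Mef2a the interval corresponds to 0.821 to 1.57 times the wild-type level and for Runx1 to 0.871 to 1.62 times. For Cebpa it runs from 0.494 to 1.46 times. On simulated libraries of this size and spread the genotype test recovered 0% of genes given a log2 change of 0.5, 15% of those given 1 and 55% of those given 2. Genes given a change near the size estimated for Sall1 or Spi1 were thus not recovered there after adjustment over all genes. The changed genes were drawn at random from all genes tested, so detection at the levels and spread of Sall1 and Spi1 themselves was not measured.

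Sall1, Spi1, Irf8 and Tal1 shared a feature: their lowest 2 of 9 libraries were Tau-P301L libraries 3 and 5, in either order. This held for 4 of the 9 factors and for 8.87% of all genes tested. Those are the libraries that stood apart in overall profile. Their microglial marker sums, 17050 and 14860 CPM, were not low, and their astrocyte sums, 594 and 670.2 CPM, lay above those of all other libraries, which ran from 307.4 to 527 CPM. Their mitochondrial shares were 23.1% and 15.4% of reads, against 9.30 to 20.0% elsewhere. They also held the fewest detected genes, 16481 and 16476 against 16870 to 18615 elsewhere, and library 5 the fewest reads, 1494727. The part of these measures in the low values was not tested. Mef2c and Mef2a were highest in Tau-P301L library 3, as were Runx1 and Maf, so the low values were not common to all 9 factors there.

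**Figure D4:**
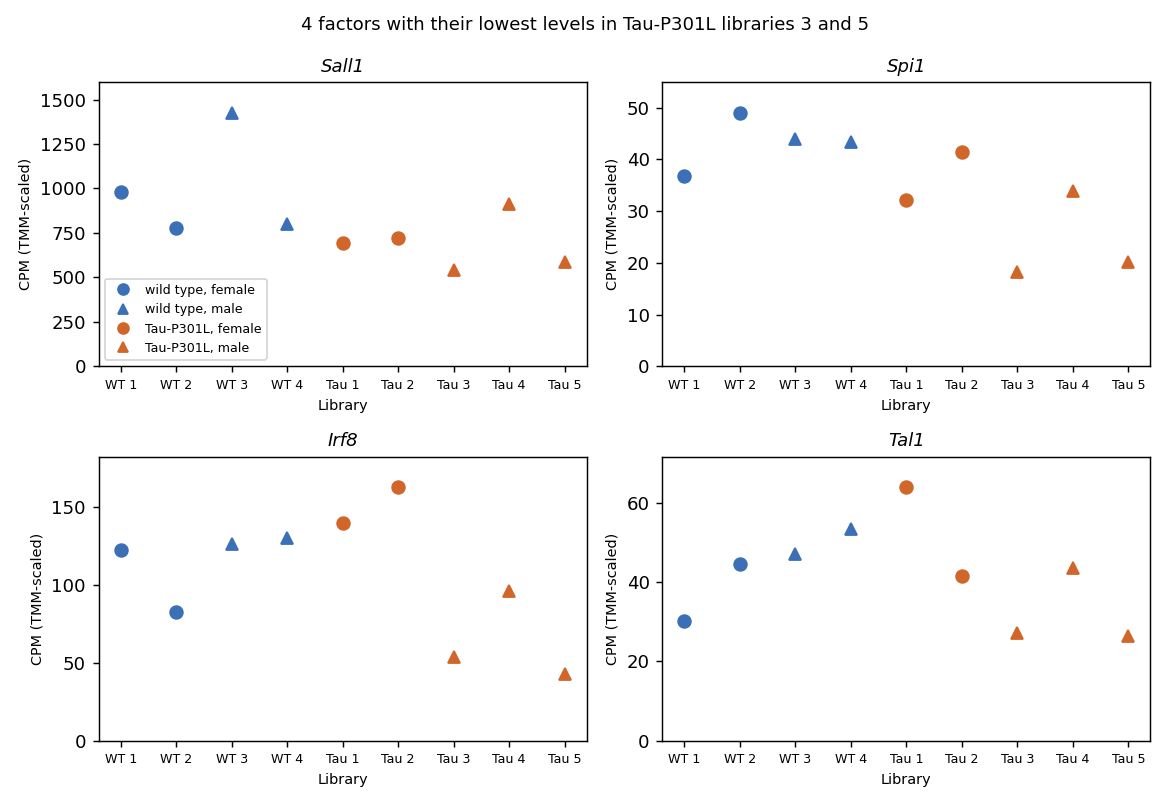
CPM of Sall1, Spi1, Irf8 and Tal1 in each of the 9 libraries, with wild type in blue, Tau-P301L in orange, circles for females and triangles for males. In all 4 panels Tau-P301L libraries 3 and 5 are the lowest points, and for Irf8 both Tau-P301L females lie above the wild-type range of 82.5 to 129.9 CPM.

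Over the 9 libraries the factors varied in part together, but no pair of the 36 passed adjustment. Spi1 and Irf8, which bind composite sites as a pair, had r = 0.77 on log2 CPM (exact permutation p = 0.0216, adjusted p = 0.315) and a Spearman rho of 0.37 (exact permutation p = 0.336, adjusted p = 0.629). Without Tau-P301L libraries 3 and 5, the 2 farthest from the median of Spi1, r was -0.25, so the relation rested on those libraries. For Irf8 and Tal1 r was 0.72 (exact permutation p = 0.0313, adjusted p = 0.315; rho 0.65, exact permutation p = 0.0666, adjusted p = 0.436) and r was 0.14 without the same libraries. Spi1 and Runx1 varied in opposite directions, with r = -0.78 (exact permutation p = 0.0101, adjusted p = 0.315) and rho = -0.72 (exact permutation p = 0.0369, adjusted p = 0.436), and here r was still -0.66 without them. Sall1 and Spi1 had r = 0.68 (exact permutation p = 0.0459, adjusted p = 0.315), rho = 0.67 (exact permutation p = 0.0589, adjusted p = 0.436) and r = 0.55 without wild-type library 3 and Tau-P301L library 3. The pooled r includes the difference between group means. With group means removed r was 0.44 for Sall1 and Spi1 (adjusted permutation p = 0.470) and -0.60 for Spi1 and Runx1 (0.349). It was 0.80 for Spi1 and Irf8 (0.178), 0.70 for Irf8 and Tal1 (0.207), -0.80 for Spi1 and Maf (0.178) and 0.77 for Mef2c and Runx1 (0.178). The pooled r of Spi1 and Maf was -0.48, and -0.06 without Tau-P301L libraries 3 and 5. For Mef2c and Runx1 the pooled r was 0.66 (rho 0.38), and 0.17 without Tau-P301L libraries 3 and 2. Values centred within a group are not freely exchangeable, so the p-values with group means removed are approximate.

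**Figure D5:**
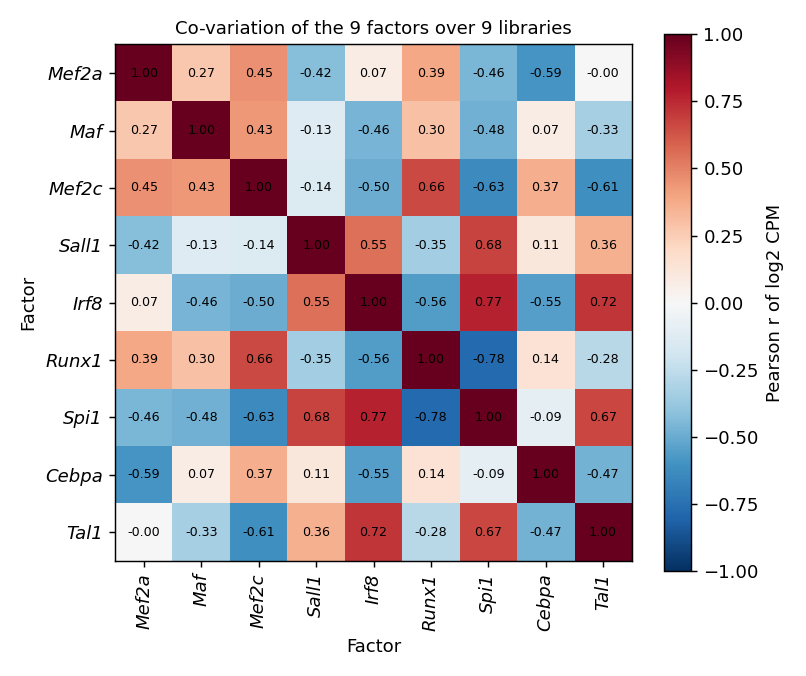
Pearson r of log2 CPM over 9 libraries for each pair of the 9 factors, from blue (-1) to red (1). Spi1, Irf8 and Tal1 do not adjoin on the axes but are red against one another, with r of 0.67 to 0.77. Without Tau-P301L libraries 3 and 5 r was -0.25 for Spi1 and Irf8, -0.12 for Spi1 and Tal1 and 0.14 for Irf8 and Tal1. Spi1 against Runx1 is the deepest blue, at -0.78.

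Promoters are shown for Sall1, Irf8 and Tal1, 3 of the 4 factors that were lowest in the same libraries, so that the Ets core can be read beside the values of Spi1, the fourth. Each line gives the 250 bases before the RefSeq start of the gene on GRCm38.p6, 5′ to 3′ on the strand of the gene, with capitals for GAGGAA, the purine-rich Ets core that Spi1 favours, on either strand.
Sall1, chr8:89044163-89044412, minus strand: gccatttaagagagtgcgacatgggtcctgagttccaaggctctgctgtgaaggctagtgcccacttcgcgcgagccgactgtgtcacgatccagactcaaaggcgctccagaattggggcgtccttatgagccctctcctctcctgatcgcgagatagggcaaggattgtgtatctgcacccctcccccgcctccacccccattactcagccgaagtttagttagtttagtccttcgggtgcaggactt
Irf8, chr8:120736108-120736357, plus strand: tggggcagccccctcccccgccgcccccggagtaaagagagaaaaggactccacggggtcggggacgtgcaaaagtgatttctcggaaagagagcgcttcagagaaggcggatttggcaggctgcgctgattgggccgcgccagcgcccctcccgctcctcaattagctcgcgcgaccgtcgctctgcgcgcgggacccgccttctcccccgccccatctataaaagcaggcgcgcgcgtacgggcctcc
Tal1, chr4:115056176-115056425, plus strand: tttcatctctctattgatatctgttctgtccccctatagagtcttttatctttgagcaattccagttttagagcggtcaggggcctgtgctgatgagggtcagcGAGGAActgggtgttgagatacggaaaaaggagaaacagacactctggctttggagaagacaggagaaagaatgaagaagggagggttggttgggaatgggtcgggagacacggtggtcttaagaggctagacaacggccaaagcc
The Tal1 window holds the core once, starting 146 bases before the gene's start, and the windows of Sall1 and Irf8 do not hold these letters. Of all 32851 RefSeq windows of the same length 23.25% hold it. That share is per window, and the 7 factors with a window have 14 windows between them. In windows not shown, at RefSeq starts other than that of the gene, the core also begins 114 and 103 bases before a start of Mef2a. It begins 122 and 186 bases before separate starts of Mef2c and 46 bases before a start of Runx1. No other of the 14 windows holds it. Mef2a, Mef2c and Runx1 were highest in Tau-P301L library 3, where Spi1 was lowest. Tal1, whose window at the gene start holds the core, was low there as well. Maf, which has no promoter window, was also highest there. Whether the core bears on these levels was not tested. The Tal1 window also holds TTGCNNAA, a loose pattern in which only the TTGC half-site of Cebp is complete. It is found in 9.56% of windows and does not overlap the Ets core in that of Tal1. None of the 3 windows holds the Runx core TGTGGT, found in 14.05%. Both strands were searched for each motif. A match is a description of letters, not a bound site.

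Some genes followed a factor closely over the 9 libraries. Among 7728 tested genes with a mean of at least 10 CPM, the highest Pearson r with Sall1 belonged to Jak3, a kinase of cytokine receptors (r = 0.98), and Bin1, a membrane-bending protein (r = 0.97). Jak3 ran from 17.79 CPM in Tau-P301L library 3 to 108.1 CPM in wild-type library 3, the lowest and highest libraries of Sall1 as well. For Spi1 they were Rps6ka1, a ribosomal S6 kinase (r = 0.98), and Dip2c (r = 0.97), for Irf8 Dazap1, an RNA-binding protein (r = 0.98), and Gm35658 (r = 0.96), and for Mef2c Sbno1 (r = 0.98) and Nemf (r = 0.96). Mef2a was followed by Denr and Tmem100 (r = 0.96 and 0.95), Maf by Gm34589 and Gspt1 (r = 0.95 and 0.94), and Tal1 by Trmt2a and Uba3 (r = 0.90 and 0.89). Cebpa was followed by Stip1 (r = 0.93) and by a gene without a symbol. These r values are the highest of 7728 over shared libraries and carry no test.

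Sex made no difference that passed for any factor. Across all genes 0.049%, or 6 genes, passed for males against females in edgeR, and 0 of the 9 factors did (0 of 9 in DESeq2 as well, against 0.0571% of all genes; 298 genes had an unadjusted p under 0.05 in edgeR). Estimates ran from -0.54 for Irf8 (SE 0.32, edgeR adjusted p = 0.9998) to 0.39 for Mef2c (SE 0.25, adjusted p = 0.9998) on the log2 scale of males over females.

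The genotype estimate of Irf8 pointed in opposite directions in the sexes. In females it averaged 102.3 CPM in wild-type and 151 CPM in Tau-P301L libraries, and both Tau-P301L libraries lay above both wild-type libraries. In males it averaged 127.9 and 64.3 CPM, and all 3 Tau-P301L libraries lay below both wild-type libraries. The interaction was -1.54 (SE 0.56, 95% interval -2.71 to -0.38, edgeR adjusted p = 0.9998 over 13302 genes). By unadjusted p it ranked 124, among 526 genes under 0.05. Of the genes tested for genotype 1.81% showed the same opposed separation. All interactions failed to pass in edgeR (0% of genes), and DESeq2 called 0.0301% of genes and none of the 9. Tal1 had an interaction of -1.12 (SE 0.65) and Mef2c one of 0.64 (SE 0.49). Both Tau-P301L libraries that stood apart were male, and without them the interaction of Irf8 was -0.97 (adjusted p = 0.994), with 1 Tau-P301L male left.

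Genes around the factors gave no call either: 0 list genes passed in edgeR or DESeq2. Of 28 paralogues 18 were tested, 10 with higher and 8 with lower estimates (median 0.04). That balance did not hold: leaving out 1 library moved the median between -0.22 (without Tau-P301L library 2) and 0.08, and it was below 0 without any 1 of the wild-type libraries or Tau-P301L libraries 2, 4 or 5. Each sex alone also gave a median below 0 (-0.04 in females, -0.10 in males), as did limma-voom (-0.03, 8 higher and 10 lower). Mef2d had the smallest p among them, with means of 205.1 ± 69.4 CPM (wild type, SD, n = 4) and 133.6 ± 43.3 CPM (Tau-P301L, SD, n = 5; log2 fold change -0.61, edgeR adjusted p = 0.776), followed by Irf5 at -0.53 (adjusted p = 0.802). Of 24 partners and repressors 23 were tested, 8 higher and 15 lower (median -0.21). The median was -0.07 without wild-type library 3, -0.37 without wild-type library 4, -0.06 in females alone and -0.36 in males alone. Cbfa2t3, a corepressor in Tal1 complexes, led with 87.2 ± 26.0 CPM and 50.4 ± 11.3 CPM (SD, n = 4 and 5; -0.78, edgeR adjusted p = 0.708), and Hdac5, a deacetylase that silences Mef2 targets, followed at -1.05 (SE 0.43, adjusted p = 0.753).

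Other transcription factors of brain macrophages gave 12 higher and 16 lower estimates among 28 tested of 30 (median -0.04). The sign of this median was not stable either, at 0.02 without wild-type library 2, 0.05 without Tau-P301L library 2 and 0.0041 without Tau-P301L library 5. Bhlhe40, a repressor active in lipid-laden macrophages, had a log2 fold change of 2.18 (SE 0.76, edgeR adjusted p = 0.684), with means of 2.62 ± 1.11 CPM (wild type, SD, n = 4), near the level of 3 reads, and 12.99 ± 15.58 CPM (Tau-P301L, SD, n = 5). The Tau-P301L libraries thus spread by more than their mean. Zfhx3, a large homeobox factor, had means of 3038 ± 551.8 CPM (wild type, SD, n = 4) and 2268 ± 198.2 CPM (Tau-P301L, SD, n = 5; -0.44, adjusted p = 0.776).

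Genes downstream of the factors were read in 3 lists. Of 15 microglial signature genes, several of which need Sall1, 13 had lower and 2 higher estimates (median -0.27), with Cst3 and Slc2a5 at -0.79 and -1.04 (edgeR adjusted p = 0.505 and 0.533). That median was -0.41 without wild-type library 4, -0.47 in females alone, -0.10 in males alone and -0.50 without Tau-P301L libraries 3 and 5. Of 20 myeloid genes known as targets of Spi1 or Irf8, 9 were higher and 11 lower (median -0.11, from -0.16 to -0.04 when 1 library was left out, nearest to 0 without Tau-P301L library 1, wild-type library 3 or Tau-P301L library 3, at -0.04, -0.06 and -0.07). The smallest p values belonged to Csf3r, the granulocyte growth factor receptor, at -0.51, and Ptprc, the leukocyte antigen Cd45, at 0.44 (adjusted p = 0.789 for both). Only 4 of 11 genes known as Mef2 targets could be tested, 3 higher and 1 lower (median 0.27). The median was 0.08 without Tau-P301L library 1 and turned to -0.06 without wild-type library 1, -0.10 without wild-type library 2, -0.24 without Tau-P301L library 2 and -0.34 in males alone, fits in which 5 of the genes were tested. The smallest p values belonged to the immediate early gene Egr1 at 1.94, whose Tau-P301L libraries held 30.8 ± 30.5 CPM (SD, n = 5), and to Klf6 at 0.53 (edgeR adjusted p = 0.593 and 0.776). The median over all genes was -0.00073.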

How the data were processed

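Each file held 1 library, with deposited counts of uniquely aligned reads per Entrez gene model, per the file headers, and RPKM values that the authors adjusted with size factors, per the file headers. Reads were aligned with GSNAP to GRCm38, per the submitters' processing notes; their versions, the annotation, any filter and the strand setting are not given in the sources used. Symbols and promoters came from RefSeq tables of GRCm38.p6 (31049 of 36528 IDs matched, with 96.93 to 97.98% of reads; 7 of the 9 factors have a promoter window). The ratio of RPKM to count was a gene constant times 1 factor per sample (largest relative deviation 1.68e-14). RPKM served for levels across genes and counts for all tests.

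Tests used edgeR 4.0.16 (R 4.3.3; quasi-likelihood F test, TMM, default low-count filter, robust dispersions, Benjamini-Hochberg over all genes at 0.05) with genotype and sex, or with their product; 12250 genes were tested for genotype. CPM values are TMM-scaled, and log2 CPM used a prior count of 2. Correlations and library measures used exact permutation tests, the latter over 126 splits. For correlations with group means removed the permutation p is approximate. Libraries of 1 group always differed by more than counting error (smallest chi-square over its degrees of freedom 12.97).

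Alternatives were DESeq2 1.42.0, limma-voom (limma 3.58.1), other scalings and filters, other covariates, each sex alone and libraries left out. In simulated data of 12250 genes unchanged genes were called in 0.03% of cases for genotype. The members and lists were chosen with earlier results of these data known. The text names the 9 factors, the 2 list genes of smallest p where none passed (Cbfb, and the near-absent factors, were named after their values were seen) and the 2 genes most like each factor; those for Runx1, and the relatives of Maf, are not reported here.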

Additional observations from a re-analysis of the deposited data

Results flagged for a closer look

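Mef2c stood at 1535 CPM in Tau-P301L library 3, apart from the other 4 libraries of its group, which held 643.7 to 827.6 CPM (gap over range 0.794, above Dixon's critical value of 0.71 for 5 samples). Irf8 stood at 82.5 CPM in wild-type library 2, below the 122.2 to 129.9 CPM of the other wild-type libraries (0.837, above the critical value of 0.829 for 4 samples). Chance gives such a value in about 1 of 20 groups, and 18 groups were examined.

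The interaction of genotype and sex for Irf8, -1.54 on the log2 scale, is listed because every Tau-P301L female lay above and every Tau-P301L male below the wild-type libraries of the same sex. Its test did not pass (edgeR adjusted p = 0.9998 over all genes).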

How the results depend on the processing

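In every alternative run 0 of the 9 factors passed for genotype, sex or interaction. Likewise 0 list genes passed for genotype, and 0 of 36 pairs passed. Library measures also gave 0, but even with all 9 libraries a single measure could not pass their permutation test after adjustment. Leaving out a library allows fewer splits still, so that 0 does not show that the library measures are stable. The interaction fit without Tau-P301L libraries 3 and 5 was chosen after seeing the data. For genotype 21 alternatives were tried per factor. Sall1 kept its sign in all, from -0.71 (males alone) to -0.28 (without wild-type library 3), with adjusted p of 0.442 to 0.9998. So did Spi1 (-0.85 to -0.23), Runx1 (0.16 to 0.32) and Mef2a (0.08 to 0.29). The others changed sign, and the cause was not tested. Leaving out 1 library gave -0.12 to 0.24 for Mef2c (lower without wild-type library 4, -0.07, or Tau-P301L library 3, -0.12), -0.26 to 0.12 for Maf (higher without wild-type library 1, 0.02, or Tau-P301L libraries 2, 0.12, or 4, 0.05), -0.34 to 0.03 for Tal1 (higher without wild-type library 4, 0.034, or Tau-P301L libraries 3, 0.0034, or 5, 0.0020), -0.55 to -0.10 for Irf8, and -0.47 to 0.0048 for Cebpa (higher without wild-type library 2). Females alone gave -0.25 for Mef2c, 0.56 for Irf8 and 0.50 for Tal1, and males alone 0.094 for Maf and 0.056 for Cebpa. Without Tau-P301L libraries 3 and 5 the values were -0.13 for Mef2c, 0.19 for Irf8 and 0.23 for Tal1. Limma-voom gave -0.0011 for Mef2c.

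Over all genes edgeR called 1 gene for genotype, DESeq2 27 and edgeR without a low-count filter 26. Leaving out 1 library gave 0 to 1, and females alone, males alone and the fit without Tau-P301L libraries 3 and 5 gave 0 each. By CPM 1 of the 9 factors kept its place in the order of levels, and leaving out 1 library kept 5 (without Tau-P301L library 3) to 9. Leave-one-out fits use spread pooled over groups. No paired analysis was possible because the labels do not tie a Tau-P301L library to a wild-type library. Depth limits Spi1, Tal1 and Cebpa most, at 29 to 203 reads per library.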
